A study of Mus musculus with 24 samples.

Results

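Of the 18647 genes in the count table, 7 were examined that encode proteins that set the chloride gradient of neurons. They were chosen by their symbols: the cotransporters Slc12a5 (KCC2), Slc12a7 (KCC4) and Slc12a2 (NKCC1), the chloride channel Clcn2 (ClC-2), and the kinases Wnk1, Wnk3 and Stk39 (SPAK). In CA1 tissue after pilocarpine-induced status epilepticus (SE), Slc12a5 and Clcn2 transcripts were lower and Slc12a7 transcripts were higher than in controls at 12, 36 and 72 h, and Slc12a2 showed no change from its time-matched controls at any of these times. The falls of Slc12a5 and Clcn2 at 72 h did not pass the test when certain single libraries were left out.

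In a mature neuron KCC2 carries chloride out together with potassium, which keeps chloride inside the cell low enough for the opening of GABA-A receptors to hyperpolarize or shunt the membrane. NKCC1 works in the opposite direction and loads the cell with chloride, together with sodium and potassium. WNK kinases sense chloride and activate SPAK, which phosphorylates both kinds of transporter, switching NKCC1 on and the KCCs off, and ClC-2 gives chloride an additional way across the membrane of pyramidal cells and glia. Transcript levels alone say nothing of phosphorylation, membrane insertion or the chloride concentration itself.

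Adult C57Bl/6N mice (at least 60 days old and at least 20 g) were given 1 mg/kg scopolamine methyl nitrate and then 335 mg/kg pilocarpine, or saline in its place for the sham controls (Ctr). Only pilocarpine-treated mice that developed SE were used, and both groups received 4 mg/kg diazepam, so the comparison is of SE against controls that carry the same scopolamine and diazepam. CA1 was cut out of 400 µm hippocampal slices at 6, 12, 24, 36 or 72 h after SE and at 12, 36 or 72 h in controls, with 3 libraries in each of the 8 groups (15 SE and 9 control libraries). Whether each library is a separate animal is not given in the sources used here, so the p-values measure the spread between these libraries, which may in part be technical. The clock time of SE is not given either. If it was the same in all mice, 12 and 36 h share a clock time, and 24 and 72 h share another.

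The authors counted reads per gene without regard to strand, and levels are given here as CPM, the counts of a gene brought to a common library size with TMM normalization. Library totals ran from 2663936 to 30133731 counts and were lowest in Ctr 72 h (2663936 to 11680209). The labels carry running numbers of unstated meaning, in 3 runs (92 to 104, 109 to 122 and 162 to 169). They were 167 to 169 in Ctr 72 h, and 104, 119 and 120 in SE 72 h. In the matched 72 h comparison, SE therefore cannot be told apart from a difference between these runs. A gene is said to have changed when its Benjamini-Hochberg adjusted p in edgeR's quasi-likelihood test was at most 0.05, and is called a DEG when its log2 fold change (Log2FC) was also at least 0.66 in size. Markers of CA1 pyramidal cells, neurons, astrocytes, oligodendrocytes and microglia were all detected in each library. Genes of sensory ganglia (9 markers such as Prph and Calca), which are not CA1 genes, summed to over 100 CPM in 6 libraries: 1 of Ctr 72 h (replicate 2, 1470 CPM), 2 of SE 72 h (replicate 1, 789 CPM, and replicate 2, 426 CPM), and 1 each of SE 36 h (698 CPM), SE 12 h (537 CPM) and SE 6 h (270 CPM). Their part in the results was not tested, but each count of changed genes was also computed without these 6 libraries.

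The deposited table gives a gene as a whole, so the DNA around the starts helps to place the 2 genes that moved in opposite directions at all 3 matched times. Both sequences are RefSeq promoters located in GRCm39 by exact match, written 5′ to 3′ on the plus strand, which is the coding strand of both genes, with motif matches in capitals. For Slc12a5 the 206 bases before the annotated gene start are shown, chr2:164802516-164802721, where the capitals mark an AP-1 match (TGANTCA). For Slc12a7 the 250 bases before a RefSeq start inside the gene are shown, chr13:73911529-73911778, which hold no annotated exon of the gene and where the capitals mark 3 GC boxes (GGGCGG on either strand).
Slc12a5: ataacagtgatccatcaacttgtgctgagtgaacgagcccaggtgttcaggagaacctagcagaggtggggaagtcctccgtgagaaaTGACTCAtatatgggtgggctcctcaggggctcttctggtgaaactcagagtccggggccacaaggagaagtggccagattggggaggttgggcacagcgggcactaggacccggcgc
Slc12a7: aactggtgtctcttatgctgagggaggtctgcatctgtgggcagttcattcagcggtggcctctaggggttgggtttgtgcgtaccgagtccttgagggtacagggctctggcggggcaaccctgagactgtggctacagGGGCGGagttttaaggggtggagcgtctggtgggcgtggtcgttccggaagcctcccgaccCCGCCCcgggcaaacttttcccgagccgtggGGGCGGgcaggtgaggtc
Over 32851 RefSeq promoters of 250 bases, 6.75% hold an AP-1 match and 32.7% a GC box on either strand. No match to the EGR motif (GCGTGGGCG or GCGGGGGCG, present in 3.06% of promoters) or to the CRE (TGACGTCA, present in 1.55%) stood in either window, which says only that these letters are not there. Each gene has another RefSeq start, not shown. For Slc12a5 its window, chr2:164809658-164809907, lies in annotated exons of the gene. It holds an E-box (CACGTG, present in 6.02% of promoters) and a GC box but no AP-1 match. For Slc12a7 the other window, chr13:73911566-73911815, overlaps most of the one shown. It holds an E-box and 6 GC boxes, among them the 3 marked above. Which start is used in CA1 was not tested. The matches are letters in DNA and were not tested for binding.

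Compared per kilobase of exon, the 7 genes spanned a wide range in control CA1. The median over the 9 control libraries was 85.4 CPM per kb for Slc12a5, 24.6 for Clcn2, 8.35 for Wnk1, 6.90 for Stk39, 5.08 for Slc12a2, 2.79 for Wnk3 and 0.404 for Slc12a7. These lengths include exon bases shared with other genes, whose reads may be uncounted. They were 19.3% and 8.6% of the exon bases of Clcn2, so its level per kb is probably too low. KCC2 was thus the most abundant of these transcripts and KCC4 the scarcest, with only 4 to 136 counts per control library.

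**Figure D1:**
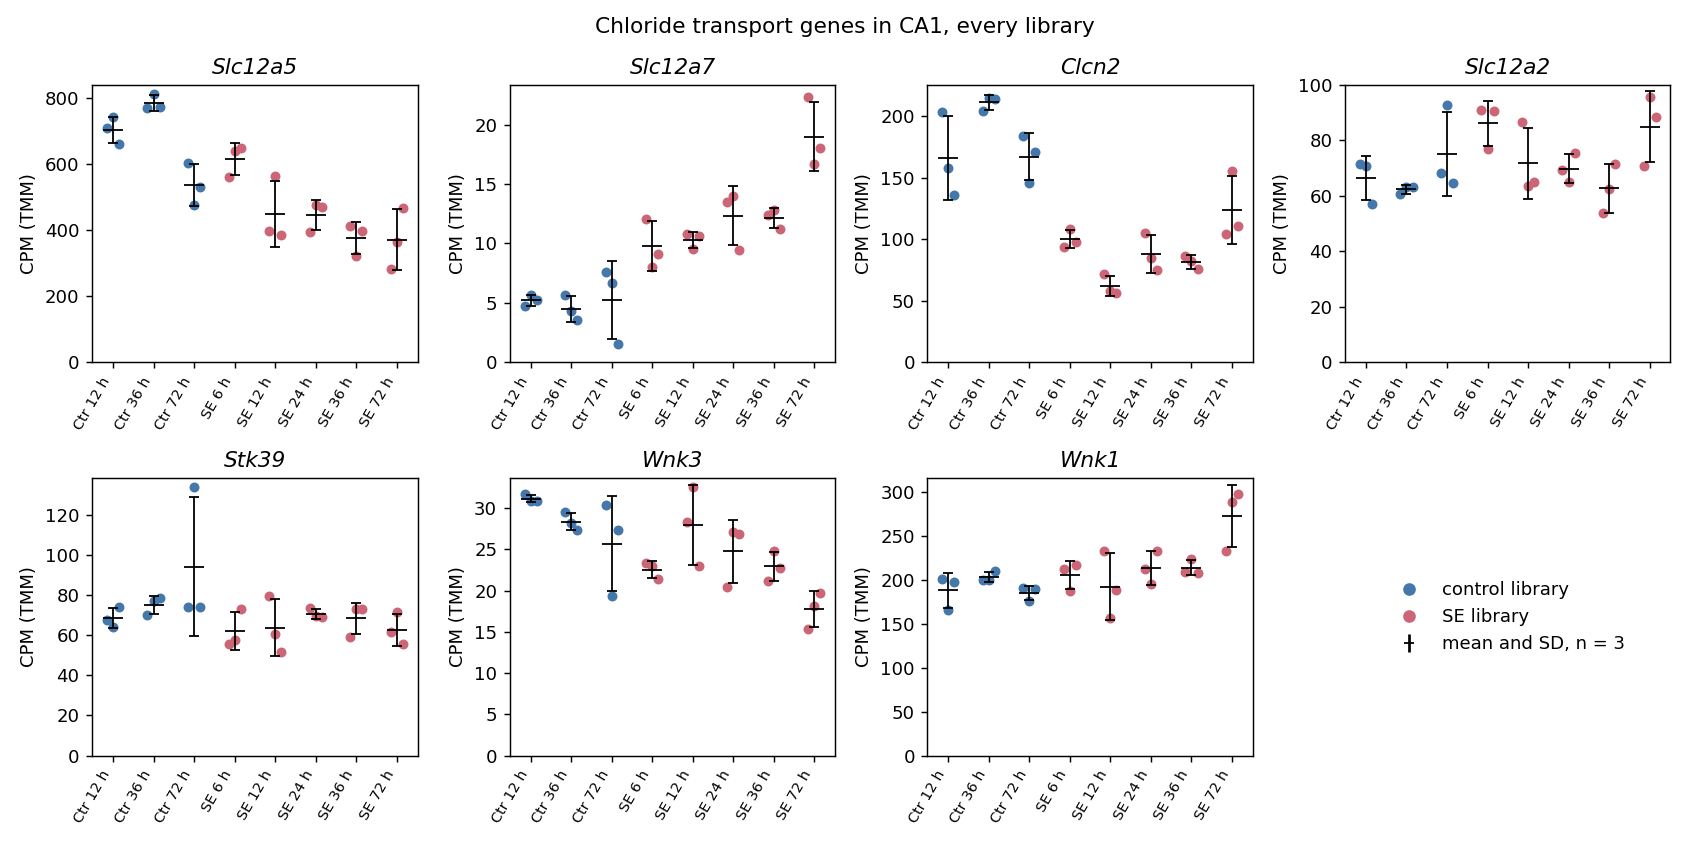
TMM-scaled CPM of the 7 genes (vertical axes from 0) in each library, by group on the horizontal axis. Blue points are control libraries, red points SE libraries, and the black bars give the mean and SD of 3 libraries. All 15 SE libraries lie above the 9 control libraries for Slc12a7, and 14 of 15 lie below them for Clcn2.

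Slc12a5 (KCC2, chr2:164802722-164841668, plus strand, GRCm39) is the neuronal chloride extruder. Its level was 710, 742 and 663 CPM in the 3 libraries of Ctr 12 h, 770, 814 and 775 CPM in Ctr 36 h, and 604, 478 and 531 CPM in Ctr 72 h. After SE it was 561, 639 and 651 CPM at 6 h, 399, 565 and 385 CPM at 12 h, 395, 476 and 470 CPM at 24 h, 412, 321 and 399 CPM at 36 h, and 284, 365 and 467 CPM at 72 h. The SE and control ranges did not overlap at 12, 36 or 72 h, and at 24 h each SE library was below all 9 controls, whereas at 6 h the SE libraries lay among the controls.
Slc12a5 fell by 0.65 on the log2 scale at 12 h (s.e. 0.16, adjusted p = 0.00291), by 1.06 at 36 h (s.e. 0.16, adjusted p = 3.84e-05) and by 0.54 at 72 h (s.e. 0.16, adjusted p = 0.0154), and reached the fold threshold for a DEG at 36 h. Against the mean of all controls it fell by 0.58 at 24 h (s.e. 0.13, adjusted p = 0.00168), and the Log2FC at 6 h was -0.12 (95% interval -0.39 to 0.16, adjusted p = 0.505). At 72 h the call was lost when replicate 1 of Ctr 72 h (Log2FC -0.44) or replicate 1 of SE 72 h (-0.37) was left out, and without the 6 libraries with sensory ganglion genes (-0.28, adjusted p = 0.415).
The size of the SE effect on Slc12a5 was not shown to differ between the 3 times: the effect at 36 h minus that at 12 h was -0.41 (95% interval -0.88 to 0.06, adjusted p = 0.313), and the effect at 72 h minus that at 36 h was 0.52 (95% interval 0.05 to 1.00, adjusted p = 0.17). The control groups themselves were spread, with Ctr 72 h at -0.55 against Ctr 36 h (adjusted p = 0.0587).

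In bulk tissue, fewer cells of a type and less RNA per cell cannot be told apart. Beside the lower Slc12a5, the summed level of 5 CA1 pyramidal markers (Wfs1, Fibcd1, Mpped1, Pou3f1 and Spink8) was 567 to 744 CPM in SE 12 h against 733 to 1120 CPM in Ctr 12 h, 677 to 849 against 1340 to 1430 CPM at 36 h, and 302 to 670 against 778 to 1010 CPM at 72 h. Of these 5 markers, 1 was lower at 12 h, 3 at 36 h and 2 at 72 h, and 0 were higher. Of 8 pan-neuronal markers, 3 were lower and 1 higher at 12 h, 2 lower and 1 higher at 36 h, and 3 lower and 0 higher at 72 h. At 6 h, where Slc12a5 passed no test, 1 of the 5 pyramidal markers was lower and 0 of the 8 neuronal markers were. The lowest pyramidal sum, 302 CPM, was that of replicate 1 of SE 72 h, which also had the lowest Slc12a5. In the same library 4 dentate granule cell markers (Prox1, C1ql2, Dsp and Calb2) summed to 250 CPM, against 22.4 and 28.6 CPM in the other SE 72 h libraries and 8.01 to 24.0 CPM in Ctr 72 h. Of these 4, 3 were higher at 72 h (median Log2FC 3.51), 0 passed the test at 12 or 36 h by edgeR, and Dsp was at 0 in every library of Ctr 72 h. At 36 h, however, their median Log2FC was 1.93. They summed to 80.1, 92.2 and 27.7 CPM in replicates 1, 2 and 3 of SE 36 h, against 23.5 to 31.2 CPM in Ctr 36 h. At 12 h their median Log2FC was -0.11. The part of these cells in the Slc12a5 result was not tested.

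Slc12a7 (KCC4, chr13:73881213-73964874, plus strand) is a potassium-chloride exporter of the same family that is known more from epithelia than from neurons. It was at 4.73, 5.67 and 5.26 CPM in Ctr 12 h, 5.68, 4.28 and 3.53 CPM in Ctr 36 h, and 7.60, 6.65 and 1.5 CPM in Ctr 72 h, the last from 4 counts in the shallowest library. It was at 12.1, 8.03 and 9.13 CPM in SE 6 h, 10.8, 9.51 and 10.6 CPM in SE 12 h, 13.5, 14 and 9.46 CPM in SE 24 h, 12.4, 12.8 and 11.2 CPM in SE 36 h, and 22.3, 16.7 and 18 CPM in SE 72 h. Each of the 15 SE libraries was above each of the 9 controls, and the 3 SE 72 h libraries were above all the others.
Slc12a7 was a DEG in all 5 comparisons. It rose by 0.98 at 12 h (s.e. 0.28, adjusted p = 0.0103), 1.43 at 36 h (s.e. 0.29, adjusted p = 0.000772) and 1.73 at 72 h (s.e. 0.30, adjusted p = 0.000228) on the log2 scale, or 1.97-, 2.69- and 3.31-fold. Against the mean of all controls it rose by 0.93 at 6 h (adjusted p = 0.00277) and by 1.26 at 24 h (adjusted p = 0.000134). Without the shallow replicate 3 of Ctr 72 h, as without each other library, the 72 h call was kept, with Log2FC between 1.41 and 2.45 over the omissions. Despite the order of the means, the effect at 72 h minus that at 12 h was 0.75 with a 95% interval of -0.12 to 1.62 (adjusted p = 0.195), so a growth of the effect with time was not shown, although without replicate 1 of Ctr 72 h this difference was 1.47 and passed the test.
The microglial markers moved with Slc12a7 late but not early. The 6 markers (Cx3cr1, P2ry12, Tmem119, Csf1r, Aif1 and C1qa) summed to 979 to 1420 CPM in SE 72 h against 250 to 335 CPM in Ctr 72 h, with 6 of 6 higher, and to 451 to 510 against 289 to 329 CPM at 36 h, with 3 higher and 1 lower. At 12 h they summed to 174 to 220 against 275 to 285 CPM, with 1 higher and 3 lower, and at 6 h to 155 to 159 CPM, with 0 higher and 5 lower, while Slc12a7 was higher at both times. Of 6 endothelial markers, 3 were higher and 2 lower at 12 h, 3 higher and 1 lower at 36 h, and 1 higher at 72 h. The summed level of 7 choroid plexus markers, an epithelium at the edge of the hippocampus, was 9.11 to 19 CPM in SE 72 h against 4.95 to 10.7 CPM in Ctr 72 h, 16 to 37.7 against 19.4 to 28.3 CPM at 36 h, 7.13 to 19.4 against 14.4 to 31.3 CPM at 12 h, and 11.6 to 23.9 CPM at 6 h. Of the 3 of these that could be tested, 0 were higher and 1 lower at 12 h, 0 passed at 36 or 72 h by edgeR (median Log2FC 0.31 and 1.35) and 1 was higher at 6 h, while Otx2 was at 0 in every library of 36 and 72 h and Folr1 in every library of Ctr 72 h. The part of these cells in the Slc12a7 result was not tested.

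Slc12a2 (NKCC1, chr18:58011164-58080812, plus strand) is the chloride loader. Its level was 71.6, 70.6 and 57.2 CPM in Ctr 12 h, 60.6, 63.3 and 63.3 CPM in Ctr 36 h, and 68.4, 92.6 and 64.5 CPM in Ctr 72 h. In SE libraries it was 90.9, 76.8 and 90.7 CPM at 6 h, 86.5, 63.7 and 65.0 CPM at 12 h, 69.3, 64.9 and 75.4 CPM at 24 h, 54.0, 62.5 and 71.6 CPM at 36 h, and 70.8, 95.7 and 88.5 CPM at 72 h. The groups overlapped at 12, 36 and 72 h, and in the order of the 8 group means each group overlapped the next.
The Log2FC of Slc12a2 was 0.11 at 12 h (95% interval -0.18 to 0.39, adjusted p = 0.556), 0.00 at 36 h (95% interval -0.28 to 0.29, adjusted p = 0.987) and 0.20 at 72 h (95% interval -0.08 to 0.49, adjusted p = 0.279). These intervals leave room for changes of up to 0.49 on the log2 scale. At 6 h Slc12a2 rose by 0.35 against the mean of all controls (s.e. 0.11, adjusted p = 0.0121), a call that was lost without replicate 1 or replicate 3 of SE 6 h. Against the same mean, Slc12a2 rose by 0.34 at 72 h (s.e. 0.11, adjusted p = 0.0167), a call lost without replicate 2 or 3 of SE 72 h (0.25 and 0.30).
Markers of oligodendrocytes moved with Slc12a2 at 6 h. The 6 markers (Mbp, Mog, Mag, Mobp, Cnp and Cldn11) summed to 3770 to 4040 CPM in SE 6 h against 1740 to 3090 CPM in the 9 controls, with 4 higher and 0 lower (median Log2FC 0.68). At 24 h, where Slc12a2 passed no test (0.05, adjusted p = 0.757), 3 of the 6 were also higher and 1 lower (median Log2FC 0.57). They then summed to 2180 to 4770 CPM. In SE 72 h they summed to 1900, 4730 and 3940 CPM, in the same order as Slc12a2. The order was also that of Slc12a2 in SE 24 h, SE 36 h and Ctr 12 h, with Slc12a2 nearly tied in Ctr 36 h. It differed in SE 6 h and SE 12 h, and in Ctr 72 h it was reversed (2880, 1740 and 3090 CPM). Their part in the Slc12a2 result was not tested.

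The balance of NKCC1 to KCC2 transcripts was read within each library, where depth and scaling cancel. The log2 ratio of Slc12a2 to Slc12a5 CPM was -3.41 ± 0.11 (SD, n = 3) in Ctr 12 h, -3.65 ± 0.04 in Ctr 36 h and -2.85 ± 0.42 in Ctr 72 h. Among the SE groups it was -2.84 ± 0.22 in SE 6 h, -2.64 ± 0.48 in SE 12 h, -2.67 ± 0.19 in SE 24 h, -2.59 ± 0.30 in SE 36 h and -2.11 ± 0.25 in SE 72 h.
SE exceeded its matched control on the log2 scale by 0.77 at 12 h (pooled SD 0.35), by 1.06 at 36 h (pooled SD 0.22) and by 0.74 at 72 h (pooled SD 0.35), and no test was run on this derived value. Individual libraries did not overlap at 12 h (SE -3.15 to -2.20, Ctr -3.53 to -3.31) or 36 h, whereas at 72 h replicate 2 of Ctr 72 h, at -2.37, lay above replicate 3 of SE 72 h, at -2.40. Per kilobase of exon, Slc12a5 exceeded Slc12a2 16.2-fold in Ctr 12 h, 19.2-fold in Ctr 36 h and 11-fold in Ctr 72 h, and 6.59-fold in SE 72 h, so KCC2 transcripts stayed the more abundant in each library.

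**Figure D2:**
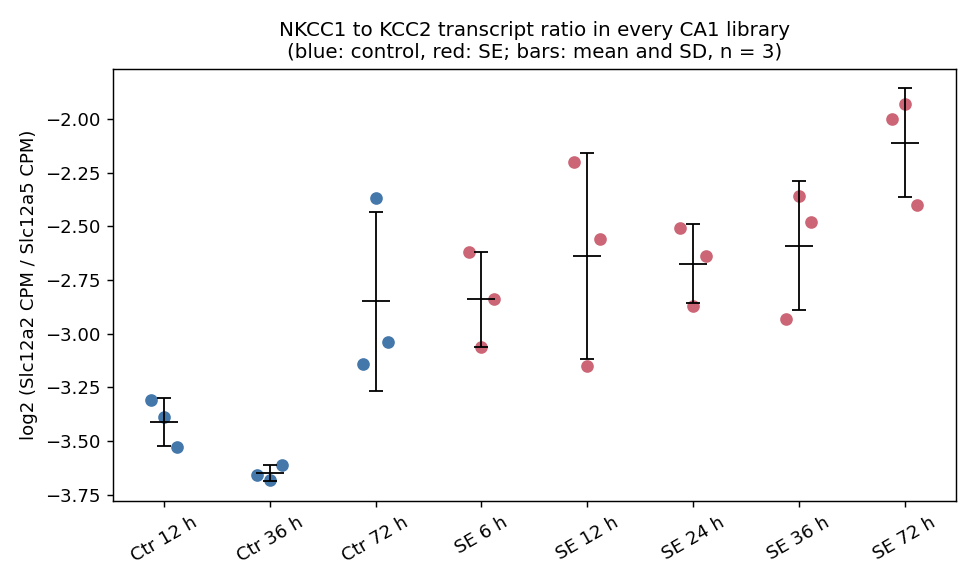
Log2 ratio of Slc12a2 to Slc12a5 CPM (vertical axis) in each of the 24 libraries, by group. Blue points are controls and red points SE libraries, with the mean and SD of 3 libraries in black. The controls of 12 and 36 h lie between -3.68 and -3.31, and SE 72 h lies between -2.40 and -1.93.

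Clcn2 (ClC-2, chr16:20521714-20536496, minus strand) is an inwardly rectifying chloride channel of neurons and glia. It was at 203, 158 and 136 CPM in Ctr 12 h, 204, 215 and 214 CPM in Ctr 36 h, and 184, 146 and 171 CPM in Ctr 72 h. It was at 94.0, 108 and 97.4 CPM in SE 6 h, 71.6, 58.1 and 56.3 CPM in SE 12 h, 105, 85.1 and 74.6 CPM in SE 24 h, 86.6, 82.5 and 75.4 CPM in SE 36 h, and 104, 155 and 111 CPM in SE 72 h. The 12 SE libraries up to 36 h were below all 9 controls, and only replicate 2 of SE 72 h, at 155 CPM, reached into the control range.
Clcn2 fell by 1.41 on the log2 scale at 12 h (s.e. 0.16, adjusted p = 1.88e-06) and by 1.37 at 36 h (s.e. 0.16, adjusted p = 2.11e-06), to 0.376 and 0.386 of the control level. Against the mean of all controls it fell by 0.85 at 6 h (adjusted p = 6.57e-05) and by 1.03 at 24 h (adjusted p = 6.21e-06). At 72 h it fell by 0.44 (s.e. 0.16, adjusted p = 0.0462), below the fold threshold. Over the 24 omissions of 1 library this call was kept in only 9, with Log2FC between -0.63 and -0.33. It was lost without replicate 1 or 3 of Ctr 72 h and without replicate 1 or 3 of SE 72 h. The other losses came without libraries of groups that were not compared, and in several other settings.
The SE effect on Clcn2 was smaller at 72 h: the effect at 72 h minus that at 12 h was 0.98 (s.e. 0.22, adjusted p = 0.00464), and minus that at 36 h it was 0.94 (s.e. 0.22, adjusted p = 0.0204). The latter difference was lost without replicate 2 of Ctr 72 h (0.85) or of SE 72 h (0.74), and without the 6 libraries with sensory ganglion genes. Neither difference passed the test with the 3 runs of label numbers as a term, as given below. Among SE groups, Clcn2 fell by 0.68 from 6 to 12 h (adjusted p = 0.0193) and rose by 0.60 from 36 to 72 h (adjusted p = 0.0203), and the step of 0.51 from 12 to 24 h gave an adjusted p of 0.0509. The first of these calls was lost without replicate 2 or 3 of SE 6 h or of SE 12 h (-0.70 to -0.62), the second without replicate 2 or 3 of SE 36 h or replicate 2 of SE 72 h (0.40 to 0.61), and the step from 12 to 24 h passed the test without replicate 1 of SE 12 h or replicate 3 of SE 24 h (0.62 and 0.61) and in 5 omissions of a library of Ctr 12 h, Ctr 72 h or SE 72 h (0.50 to 0.51). Its lowest group was SE 12 h, whose range (56.3 to 71.6 CPM) lay below that of every other group.
Clcn2 shares exons with genes of the opposite strand, 19.3% of its exon bases with Fam131a and 8.6% with Polr2h, and the counting ignored the strand. Fam131a fell by 0.69 at 12 h (adjusted p = 0.00642), by 1.49 at 36 h (adjusted p = 5.57e-06) and by 0.98 at 72 h (adjusted p = 0.000574), and Polr2h was at -0.03 at 12 h (adjusted p = 0.898) and fell by 0.52 at 36 h and 0.81 at 72 h. The decrease of Clcn2 was the larger at 12 h, and that of Fam131a at 36 h (-1.49 against -1.37) and 72 h (-0.98 against -0.44), differences between genes that were not tested. Reads from the shared bases cannot be assigned to 1 gene. The authors kept the default mode of HTSeq, which leaves reads that overlap 2 genes uncounted. The Clcn2 counts should thus come mainly from its other bases. The overlap was read from GENCODE M39 and the counting used M26, so some uncertainty about the size of the Clcn2 change remains. Astrocytic markers, another source of Clcn2, were 1 of 6 higher and 2 lower at 12 h, 2 higher and 4 lower at 36 h, and 3 higher and 0 lower at 72 h.

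Of the kinases, Wnk1 (chr6:119900930-120015660, minus strand), a chloride-sensing kinase present in many cell types, changed at 72 h only among the matched times. Wnk1 was at 201, 165 and 197 CPM in Ctr 12 h, 200, 200 and 210 CPM in Ctr 36 h, and 190, 176 and 189 CPM in Ctr 72 h. It was at 212, 187 and 217 CPM in SE 6 h, 232, 156 and 188 CPM in SE 12 h, 212, 195 and 233 CPM in SE 24 h, 209, 223 and 208 CPM in SE 36 h, and 232, 288 and 297 CPM in SE 72 h. All 3 SE 72 h libraries were above the 9 controls, while at 12 h the groups overlapped.
Wnk1 rose by 0.56 at 72 h (s.e. 0.13, adjusted p = 0.00298), and its Log2FC was 0.03 at 12 h (95% interval -0.24 to 0.30) and 0.07 at 36 h (95% interval -0.20 to 0.34). The 72 h call was kept without each library in turn (0.49 to 0.66) and without the 6 libraries with sensory ganglion genes. The effect at 72 h minus that at 12 h was 0.52 (s.e. 0.18, adjusted p = 0.0436), a difference lost in 9 of the 12 omissions of a compared library (0.39 to 0.55; it was kept without replicate 2 of Ctr 12 h, replicate 1 of SE 12 h or replicate 1 of SE 72 h), and minus that at 36 h it was 0.49 (adjusted p = 0.119).
Glial markers moved with Wnk1 at 72 h, where 3 of 6 astrocytic, 2 of 6 oligodendrocyte (median Log2FC 0.61), 2 of 4 oligodendrocyte precursor and 6 of 6 microglial markers were higher and 0 were lower. The oligodendrocyte markers summed to 1900, 4730 and 3940 CPM in the 3 libraries of SE 72 h, lowest like Wnk1 in replicate 1, against 1740 to 3090 CPM in Ctr 72 h. At 6 h, where Wnk1 passed no test, they summed to 3770 to 4040 CPM. The part of these cells in the Wnk1 result was not tested.

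Wnk3 (chrX:149981074-150103148, plus strand), a WNK kinase known from neurons, moved the other way. It was at 31.7, 30.9 and 30.9 CPM in Ctr 12 h, 29.5, 28.2 and 27.4 CPM in Ctr 36 h, and 30.4, 19.3 and 27.4 CPM in Ctr 72 h. It was at 23.3, 23 and 21.4 CPM in SE 6 h, 28.3, 32.6 and 23 CPM in SE 12 h, 20.4, 27.1 and 26.9 CPM in SE 24 h, 21.2, 24.8 and 22.8 CPM in SE 36 h, and 15.4, 18.1 and 19.7 CPM in SE 72 h. At 72 h the highest SE library, at 19.7 CPM, was just above the lowest control, at 19.3 CPM, so the groups touched.
Wnk3 fell by 0.53 at 72 h (s.e. 0.14, adjusted p = 0.00771) and by 0.33 at 6 h against the mean of the controls (s.e. 0.11, adjusted p = 0.0258). Its Log2FC was -0.15 at 12 h (adjusted p = 0.387) and -0.31 at 36 h (adjusted p = 0.0887), where the SE range of 21.2 to 24.8 CPM lay below the 27.4 to 29.5 CPM of Ctr 36 h without passing the test. The 72 h call was lost without replicate 1 of Ctr 72 h or of SE 72 h (-0.37 at the smallest), the latter being the library with the high dentate granule cell markers, and without the 6 libraries with sensory ganglion genes (-0.56, adjusted p = 0.102). At 6 h it was lost without replicate 2 or 3 of SE 6 h or replicate 1 of Ctr 72 h.

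Stk39 (SPAK, chr2:68040789-68302723, minus strand) is the kinase through which the WNKs reach the cotransporters. It was at 67.5, 64.0 and 73.9 CPM in Ctr 12 h, 69.9, 76.9 and 78.3 CPM in Ctr 36 h, and 73.8, 134 and 74.2 CPM in Ctr 72 h. It was at 55.8, 57.4 and 72.8 CPM in SE 6 h, 79.4, 60.4 and 51.4 CPM in SE 12 h, 73.4, 69.7 and 68.9 CPM in SE 24 h, 59.2, 73.0 and 72.8 CPM in SE 36 h, and 61.4, 71.3 and 55.4 CPM in SE 72 h. Replicate 2 of Ctr 72 h, the library with the most sensory ganglion RNA, stood far above the rest at 134 CPM.
Stk39 fell by 0.51 at 72 h (s.e. 0.12, adjusted p = 0.00389), but by only 0.24 (adjusted p = 0.306) without that library, so this call rested on 1 control. At 12 h its Log2FC was -0.11 (adjusted p = 0.497) and at 36 h -0.13 (adjusted p = 0.429). At 6 h it fell by 0.31 against the mean of the controls (adjusted p = 0.0179), which was lost without that same control or without replicate 1 or 2 of SE 6 h. At 72 h the 3 kinases thus passed the test in different directions, Wnk1 higher and Wnk3 and Stk39 lower.

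**Figure D3:**
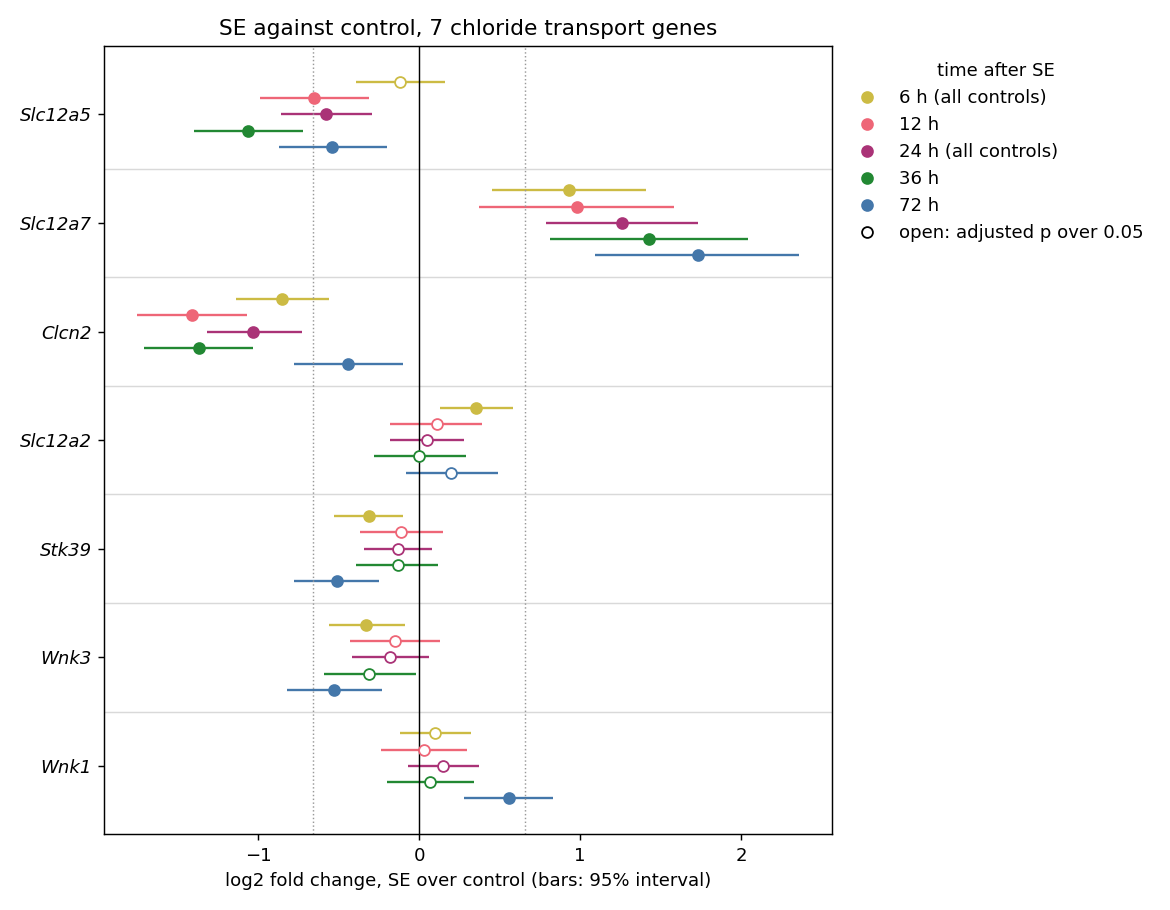
Log2 fold change of SE over control (horizontal axis, dotted lines at 0.66 in either direction) for the 7 genes at 5 times after SE, with 95% intervals. The values at 6 and 24 h are against the mean of all controls, filled points have an adjusted p of at most 0.05, and open points do not. Slc12a7 lies to the right of 0 at all 5 times and Clcn2 to the left.

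Counted together, 3 of the 7 genes changed at 12 h (1 higher and 2 lower), against 38.5% of all 18153 genes tested (20.4% higher and 18.1% lower), and 2 were DEGs, against 25.2%. At 36 h 3 changed (1 higher and 2 lower), against 31.7% of all genes (17.2% higher and 14.4% lower), and the 3 were DEGs, against 21.6%. At 72 h 6 changed (2 higher and 4 lower), against 28.1% of all genes (18.7% higher and 9.39% lower), and 1 was a DEG, against 19.4%. Against the mean of all controls, as used for 6 and 24 h, 7 of 7 changed at 72 h (3 higher and 4 lower), against 37.4% of all genes, and 3 were DEGs, against 22.1%: Slc12a5 (-0.85), Wnk3 (-0.67) and Slc12a7 (1.89), each past the adjusted p threshold in all 24 omissions of 1 library. Slc12a5 narrowly missed the test (-0.54, adjusted p = 0.05 after rounding) without the 6 libraries with sensory ganglion genes, and the call of Stk39 (-0.30) was lost without replicate 2 of Ctr 72 h (-0.21) or replicate 1 or 3 of SE 72 h (-0.29 and -0.22). With this control 4 genes changed at 12 h, against 48.1% of all genes, with 2 DEGs, against 28.6%, and 4 at 36 h, against 39.4%, with 3 DEGs, against 23.7%. In SE 6 h 5 changed, against 39.9% of all genes, with 2 DEGs, against 22%, and in SE 24 h 3 changed, against 41.3%, with 2 DEGs, against 24.1%. With many genes of CA1 changed, 3 of 7 at 12, 24 and 36 h is near the share of all genes. The count at 72 h was 3 without the 6 libraries with sensory ganglion genes, where only Slc12a7, Wnk1 and Clcn2 passed, and 2 in a fit of the compared groups alone. The median Log2FC of the 7 genes at 12, 36 and 72 h was -0.11, -0.13 and -0.44, beside 0.01, 0.00 and 0.10 over all genes. The comparisons at 6 and 24 h use the same 9 control libraries as the matched ones.
Among control groups, 0 of the 7 genes changed by edgeR, and DESeq2 called 1. Between Ctr 36 h and Ctr 12 h 0 genes of 18153 passed the adjusted threshold (0% called), with 648 at an unadjusted p under 0.05, and 1.22% and 3.29% passed for Ctr 72 h against Ctr 12 h and Ctr 36 h. The SE effect differed between 12 and 72 h for 2 of the 7 genes (22.2% of all genes) and between 36 and 72 h for 1 (5.36%), and between 12 and 36 h for 0 by edgeR (3.84%). Between consecutive SE times 1 gene changed from 6 to 12 h (4.53% of all genes), 0 from 12 to 24 h (9.08%), 0 from 24 to 36 h (0.87%) and 2 from 36 to 72 h (10.3%), the second being Slc12a2, which rose by 0.44 (adjusted p = 0.0381), a call lost without replicate 2 of Ctr 36 h, replicate 1 or 2 of SE 36 h or replicate 2 or 3 of SE 72 h (0.35 to 0.44).

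The genes whose log2 CPM ran most like that of each member over the 24 libraries were named from 13723 genes by Pearson's r, as a description, since the libraries share their groups and depth. For Slc12a5 they were Ptprn2 (r = 0.940), Clstn1 (0.921) and Camkk2 (0.918), and for Clcn2 Brd9 and Grm5 (both 0.942) and the clock output gene Dbp (0.930). For Slc12a7 they were Igsf6 (0.939), Tgfbr2 (0.933) and Pacsin2 (0.927), and for Wnk3 Hook1 (0.919), Atcay (0.858) and Rtf1 (0.853). Stk39 (Ap1ar, 0.861), Wnk1 (Slc44a1, 0.836) and Slc12a2 (Top3a, 0.773) had no gene above 0.9. Among the 7 genes themselves, r was -0.69 between Slc12a5 and Slc12a7, 0.66 between Slc12a5 and Wnk3, 0.61 between Slc12a5 and Clcn2, and -0.16 between Slc12a5 and Slc12a2.

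The wider chloride system was described with 6 lists of 54 further genes, of which 51 were tested. At 12 h 19 of the 51 changed (11 higher and 8 lower), at 36 h 13 (9 higher and 4 lower) and at 72 h 21 (16 higher and 5 lower), which is 37.3%, 25.5% and 41.2% beside 38.5%, 31.7% and 28.1% of all genes. Without replicate 1 of SE 72 h the count at 72 h was 13. Of all genes, 20.4%, 17.2% and 18.7% were higher and 18.1%, 14.4% and 9.39% lower at these times. Several of the counts per list below lie near or below these shares of all genes, and no list was tested as a set.
Among 4 other cotransporters of the family tested, 2 rose at 12 h, 2 at 36 h and 3 at 72 h, and 0 fell. Slc12a4 (KCC1), the widely expressed potassium-chloride exporter, rose by 0.73 at 12 h, 1.14 at 36 h and 1.63 at 72 h (adjusted p = 0.00324, 6.51e-05 and 2.19e-06). Slc12a3, the thiazide-sensitive sodium-chloride cotransporter of the kidney, rose by 1.59, 2.01 and 2.13 (adjusted p = 0.0196, 0.00484 and 0.0114) from low counts, 1 to 32 in the control libraries of 72 h. Its call was lost at 12 h without replicate 3 of Ctr 12 h (1.3), and at 72 h without replicate 1 or 3 of Ctr 72 h (1.43 and 1.63), without replicate 1 of SE 72 h (1.36) and without the 6 libraries with sensory ganglion genes (1.34). Slc12a9 rose at 72 h only (0.82, adjusted p = 2.01e-05). Of the potassium-chloride cotransporters given here, therefore, Slc12a4 and Slc12a7 rose and Slc12a5 fell at all 3 matched times. The 72 h call of Slc12a5 was lost without certain single libraries, as given above.
In the WNK and SPAK module 1 of 10 other genes changed at each of 12, 36 and 72 h. These were Klhl3, which targets WNK kinases for degradation (0.90 at 12 h, adjusted p = 0.000655), Cab39l, a scaffold that activates SPAK (0.55 at 36 h, adjusted p = 0.0413), and Wnk4 (2.16 at 72 h, adjusted p = 0.0127, from 4 to 36 counts in controls). The call of Wnk4 was lost without replicate 1 of SE 72 h (1.68), and that of Cab39l without any of the 3 libraries of Ctr 36 h, without replicate 1 or 3 of SE 36 h (0.33 at the smallest) or without replicate 2 of Ctr 72 h or of SE 72 h. Oxsr1, the kinase closest to SPAK, passed no test at any of the 5 times.
Among other ClC genes and their partners, 1 of 9 changed at 12 h, 0 at 36 h by edgeR and 4 at 72 h. Hepacam and Mlc1, partners of ClC-2 in astrocytes, rose at 72 h by 1.21 (adjusted p = 2.15e-06) and 0.80 (adjusted p = 0.000289), Hepacam having fallen by 0.73 at 12 h (adjusted p = 0.000362), and Clcn1, the muscle channel, fell by 1.13 at 72 h (adjusted p = 0.0337) at 12 to 63 counts per library, a call lost without replicate 2 of Ctr 72 h (-0.70) or any of the 3 libraries of SE 72 h (-1.23 to -1).
Of 9 other anion channels, 3 changed at 12 h, 2 at 36 h and 4 at 72 h, each of them higher. Ano6, a scramblase and channel of many cell types, rose by 1.12, 1.71 and 1.28 (adjusted p = 1.35e-06, 7.22e-09 and 4.47e-07), Lrrc8a, the required subunit of the volume-regulated anion channel, rose by 1.12 at 12 h (adjusted p = 0.000269) and 0.65 at 72 h (adjusted p = 0.0283), and Pacc1, the proton-activated chloride channel, rose by 0.62 at 36 h and 0.93 at 72 h (adjusted p = 0.00424 and 0.000229). The 72 h call of Lrrc8a was lost without replicate 1 or 3 of Ctr 72 h (0.41 and 0.65) or replicate 1 of SE 72 h (0.45).
Of 9 anion exchangers and carbonic anhydrases, 6 fell and 0 rose at 12 h, 3 fell and 1 rose at 36 h, and 0 fell and 3 passed the test as higher at 72 h. Slc4a4, the sodium bicarbonate cotransporter of astrocytes, fell by 1.06 at 12 h (adjusted p = 0.000308) and rose by 1.05 at 72 h (adjusted p = 0.00052). Car7, the neuronal carbonic anhydrase that supplies bicarbonate for GABA-A currents, fell by 0.82 at 12 h (adjusted p = 0.0178) and 0.78 at 36 h (adjusted p = 0.0265), calls lost without replicate 3 of Ctr 12 h (-0.69) or replicate 1 of SE 12 h (-0.73), and without replicate 1 or 2 of Ctr 36 h or replicate 1 or 2 of SE 36 h (-0.79 to -0.59). Slc4a2 rose by 1.15 at 36 h and 0.86 at 72 h, and Slc4a1, the exchanger of red blood cells, is counted among the 3 at 72 h on 3 to 21 counts per SE library against 0 to 3 per control, from libraries of different depth. Its CPM overlapped between the groups (0.146 to 1.24 in SE 72 h, 0 to 0.512 in Ctr 72 h), so no fold is given.
Of 10 partners and regulators of KCC2, 6 changed at 12 h (5 higher), 4 at 36 h (3 higher) and 6 at 72 h (3 higher). Bdnf, whose product acts through TrkB on KCC2 expression, rose by 2.89 at 12 h and 2.55 at 36 h (adjusted p = 0.000182 and 0.000596), with 1.02 at 72 h (adjusted p = 0.145). Egr4, a transcription factor of the Slc12a5 gene, rose by 2.23 at 12 h (adjusted p = 0.0112), and its Log2FC was -1.11 at 36 h (adjusted p = 0.203) and -1.58 at 72 h (adjusted p = 0.0865). The 12 h call of Egr4 was lost without replicate 3 of Ctr 12 h (1.98) or of SE 12 h (1.70), and without replicate 2 of Ctr 72 h Egr4 fell by 1.17 at 36 h (adjusted p = 0.0235) and by 1.94 at 72 h (adjusted p = 0.00315), and without replicate 3 of SE 72 h by 2.74 at 72 h (adjusted p = 0.0112). Arhgef7, a partner of KCC2 in dendritic spines, rose by 1.02 at 12 h and 0.75 at 36 h (adjusted p = 3.03e-06 and 8.48e-05).

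**Figure D4:**
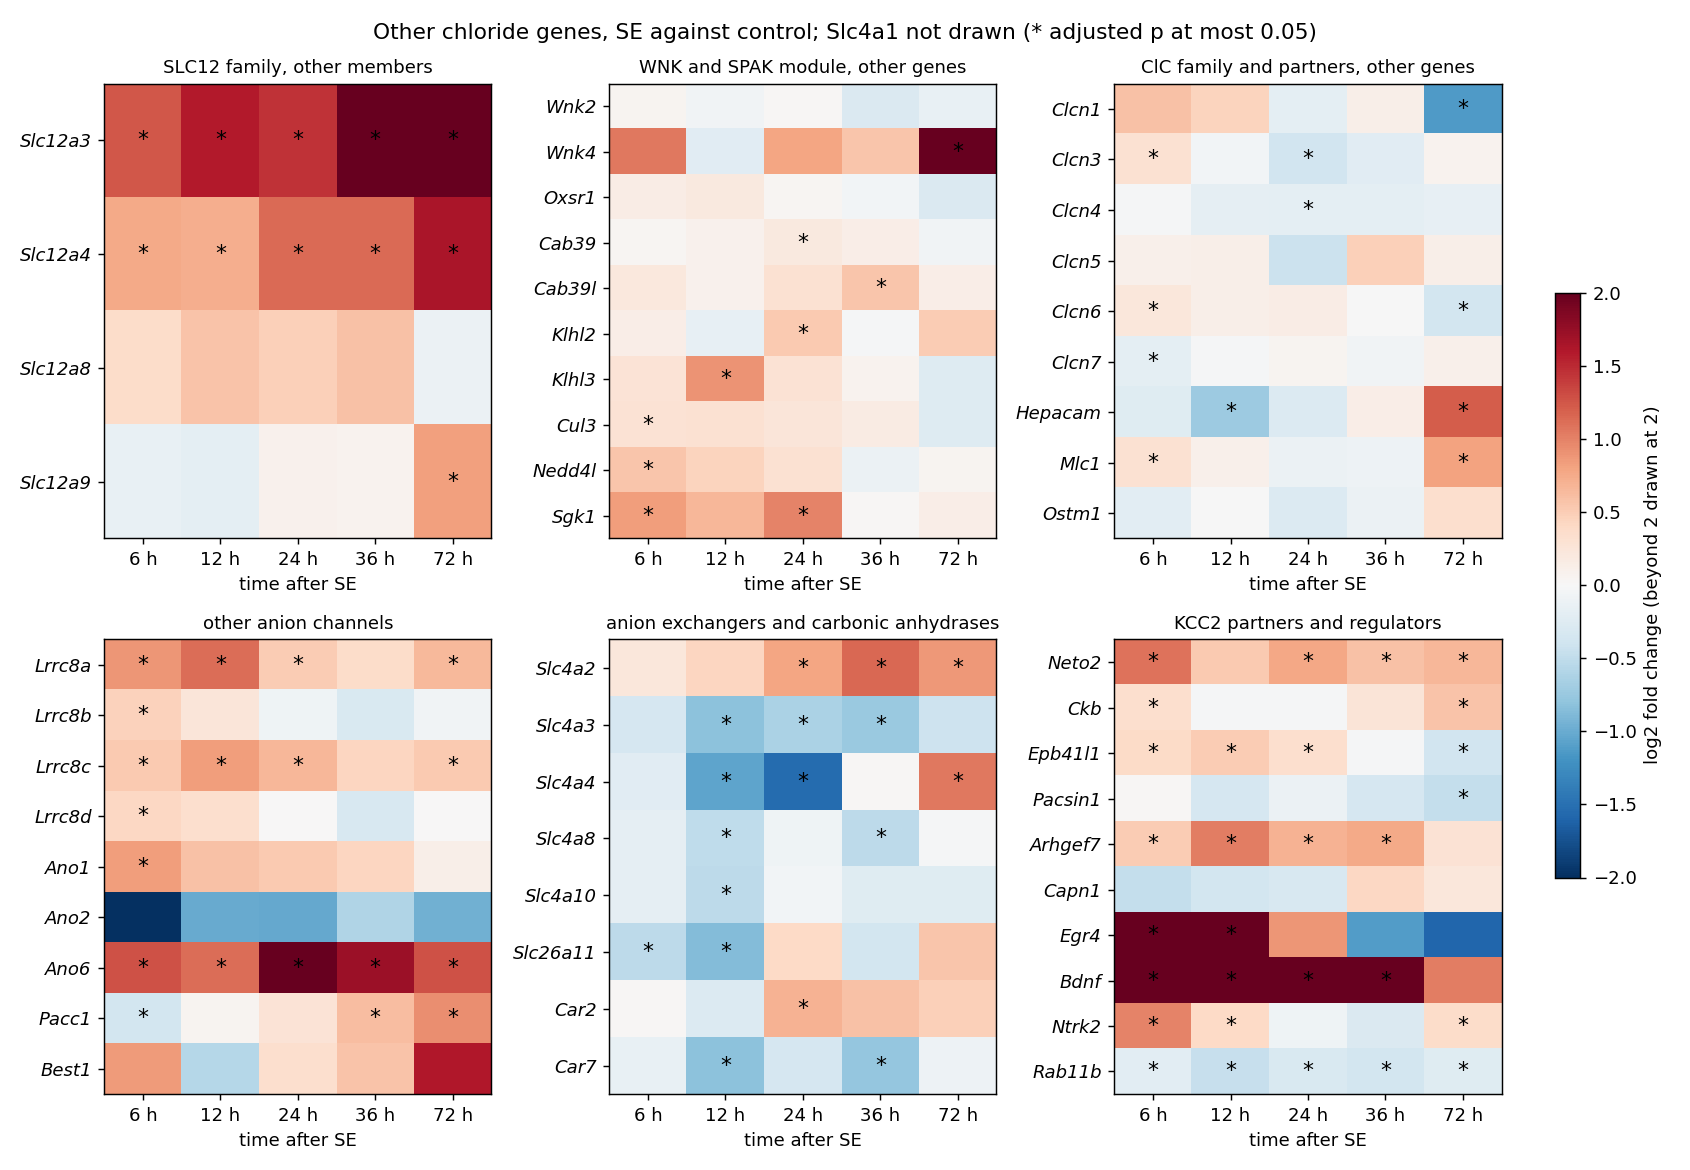
Log2 fold change of SE over control (colour, red higher and blue lower, drawn at 2 where larger) for the other chloride genes in 6 lists, by time after SE. The columns at 6 and 24 h are against the mean of all controls, and a star marks an adjusted p of at most 0.05. Slc12a4 and Ano6 are red with a star at all 5 times, and Slc4a4 turns from blue at 12 h to red at 72 h.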

How the data were processed

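The 24 libraries of microdissected CA1 comprise 5 SE and 3 control groups of 3. The authors trimmed the paired-end reads with Trim Galore 0.6.6, aligned them to GRCm39 with STAR 2.7.8a, used HTSeq 0.13.5 for unstranded counting over GENCODE M26 genes, merged lanes, and deposited whole-number counts without normalization. Unstranded counts leave overlapping genes uncertain. Symbols and positions came from GENCODE M39 on the same assembly (18552 of 18647 genes matched). The 7 genes, the lists of pathway and marker genes and the tests were chosen with earlier results of these data known.

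R 4.3.3 with edgeR 4.0.16 was used. Counts were scaled with TMM, filtered with filterByExpr (18153 genes) and fitted over all libraries by group, together with 1 residual-based factor for unwanted variation (RUVr). This factor was 0.378, -0.802 and 0.368 in replicates 1, 2 and 3 of Ctr 72 h. In the other libraries it lay between -0.140 and 0.0976. It thus took up mainly the spread within Ctr 72 h, and the s.e. and p-values at 72 h leave that part of the spread out. The quasi-likelihood F-test of edgeR gave p-values, adjusted by Benjamini-Hochberg over all genes tested, and 95% intervals used 15 residual degrees of freedom. SE at 6 and 24 h, which had no control of its own, was compared with the mean of the 3 control groups. That mean, and the comparisons of 72 h with 12 or 36 h, may mix clock time with time after SE. The part of clock time was not tested. From each pathway list the text names up to 3 genes with the largest change among its DEGs at 12, 36 or 72 h. Cab39l, Car7 and Oxsr1 were added after their values were seen. A few genes of the pathway and marker lists are not reported here, and counts and sums are over the others. On simulated counts for SE 12 h against Ctr 12 h (17708 genes), 15 of 100 genes changed by a log2FC of 0.7 and 66 of 100 changed by 1.5 were recovered, with 5 genes called in error. No other genes were changed in the simulation, whereas 38.5% of genes passed in the data. Its spread was also estimated without the RUVr factor. These numbers therefore do not give the recovery or the error of the tests reported.

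Alternatives were DESeq2 1.42.0, limma-voom (limma 3.58.1), other scalings and filters on low counts, no RUVr factor, a model of just the compared groups, a term for 3 runs of running numbers found in the labels, a block for replicate number, the study's fold threshold, and each library left out. Leaving out the 6 libraries with over 100 CPM of sensory ganglion genes was added after seeing the data. Same-numbered SE and control libraries did not deviate together (r between -0.201 and 0.181), so replicate numbers were not used as pairs. The authors' own tests with consensusDE were not used here.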

Additional observations from a re-analysis of the deposited data

Results flagged for a closer look

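The SE effect differed between times for 2 of the 7 genes, each by a test of the difference itself in edgeR's quasi-likelihood model. For Clcn2 the Log2FC at 72 h exceeded that at 12 h by 0.98 (adjusted p = 0.00464) and that at 36 h by 0.94 (adjusted p = 0.0204). Without the 6 libraries with sensory ganglion genes the difference from 36 h was 0.64 (adjusted p = 0.275), and with the 3 runs of label numbers as a term the differences were 0.74 (adjusted p = 0.0947) and 0.78 (adjusted p = 0.128). The difference from 36 h did not pass the test without replicate 2 of Ctr 72 h (0.85) or of SE 72 h (0.74) either. For Wnk1 the Log2FC at 72 h exceeded that at 12 h by 0.52 (adjusted p = 0.0436), a call lost in 9 of the 12 omissions of a compared library (0.39 to 0.55).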

How the results depend on the processing

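By adjusted p, the calls of Slc12a5, Slc12a7 and Clcn2 at 12, 24 and 36 h were kept in every alternative in which the gene was tested. Slc12a7, with as few as 4 counts, was not tested with at least 10 counts required in every library, which left 2 genes at each of these times, and with the fold threshold for DEGs Slc12a5 (-0.65 at 12 h, -0.58 at 24 h) was not called, which left 2 at 12 and 24 h. With the fold threshold for DEGs, the number of changed genes among the 7 was 1 at 72 h and 2 at 6 h, that of the other chloride genes 8 at 36 h and 12 at 72 h, and 0 of the 7 changed from 6 to 12 h or from 36 to 72 h. With only the compared groups fitted, 2 genes changed at 72 h, 3 at 6 h, 0 from 6 to 12 h and 0 from 36 to 72 h, the effects of 0 genes differed between 12 and 72 h, and 22 other chloride genes changed at 36 h and 8 at 72 h. With the 3 runs of label numbers as a term (92 to 104 held SE libraries only), 3 genes changed at 72 h, 3 at 6 h, 0 from 6 to 12 h and 1 from 12 to 24 h, the effects of 1 gene differed between 12 and 72 h and of 0 between 36 and 72 h, and 12 other chloride genes changed at 72 h. No SE 72 h library lay in the run of the Ctr 72 h libraries (162 to 169). The shift of that run was therefore estimated from other groups, and this fit cannot separate SE from label run at 72 h. Without the RUVr factor 3 genes changed at 6 h and 1 from 36 to 72 h, where library size alone gave 1. DESeq2 called 2 genes from 6 to 12 h, 1 from 12 to 24 h, 4 from 36 to 72 h and 1 between control groups, and its size factors in edgeR left 1 gene whose effects differed between 12 and 72 h. Without the 6 libraries with sensory ganglion genes 3 genes changed at 72 h, 1 from 12 to 24 h and 1 from 36 to 72 h, and the effects of 0 differed between 36 and 72 h. The cause of these shifts was not tested, beyond the fewer libraries and the stricter threshold themselves. Smaller shifts of a count were treated as no change and are not listed.

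Over the 24 omissions of 1 library, the count of changed genes was 3 to 6 at 72 h and 3 to 5 at 6 h, 0 to 1 from 6 to 12 h, 0 to 1 from 12 to 24 h, 0 to 3 from 36 to 72 h and 0 to 2 between control groups. The effects of 1 to 3 genes differed between 12 and 72 h and of 0 to 1 between 36 and 72 h. The other chloride genes changed numbered 16 to 26 (12 h), 9 to 16 (36 h) and 13 to 23 (72 h, lowest without replicate 1 of SE 72 h). For the log2 ratio of Slc12a2 to Slc12a5 the SE effect ranged from 0.56 to 1.03 (12 h), 0.95 to 1.24 (36 h) and 0.59 to 0.98 (72 h).

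Of the members' values, signs turned only where no test was passed. With the label runs as a term Slc12a2 was -0.01 at 36 h and Stk39 0.00 at 24 h. Without the libraries with sensory ganglion genes Slc12a2 was -0.04 at 12 h and -0.10 at 36 h, and Wnk1 -0.13 at 12 h. Without 1 library each, Slc12a2 ranged from -0.05 to 0.19 at 12 h, from -0.10 to 0.10 at 36 h and from -0.01 to 0.10 at 24 h, Wnk1 from -0.13 to 0.16 at 12 h and Stk39 from -0.29 to 0.02 at 12 h.

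With the replicate number as a block, 1 gene changed from 12 to 24 h after SE (Clcn2, 0.50, adjusted p = 0.0386) where the fit without it called 0. No other count of the 7 genes was flagged as moved, but small shifts of a count were not flagged. Replicate numbers may not pair these libraries.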
